A study of Homo sapiens with 9 samples.

Results

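Among the genes measured in SKBR3 cells after knockdown of PVRL4, 7 were grouped as PML body and nuclear speckled protein genes: PML, SP100, SP110, IFI16, TRIM22, DAXX and ATRX. IFI16 and TRIM22 belong to the PYHIN and TRIM families and are not relatives of the speckled protein SP100. All 7 were taken from the expression table by gene symbol and make up 7 of its 20812 genes. SKBR3 is an established cell line from a human breast adenocarcinoma with ERBB2 amplification, and PVRL4 encodes nectin-4, an adhesion protein of the cell surface. All 9 libraries came from SKBR3 cells transfected with 10 nM of siRNA with the same lipid reagent for 48 h. A non-targeting control siRNA was used for 3 libraries (siCTRL), a first PVRL4 siRNA for 3 (siPVRL4_1, here siRNA 1) and a second for 3 (siPVRL4_2, here siRNA 2). The control siRNA came from one supplier and both PVRL4 siRNAs from another, so sequence and supplier cannot be told apart in a comparison with control. Every group is transfected, and an untransfected group was not analysed here. The labels number the replicates without saying whether they are separate cultures, so the spread and the p-values describe these libraries and may be technical.

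PML nuclear bodies are small protein assemblies in the nucleus. The PML protein forms their scaffold, and its conjugation to SUMO, a small ubiquitin-like modifier, lets it gather partners with SUMO-binding motifs, SP100 and DAXX among them. The bodies are known for restricting viruses and for controlling chromatin, and the DAXX and ATRX proteins that visit them together place histone H3.3 into heterochromatin. PML, SP100, SP110, IFI16 and TRIM22 are known interferon-stimulated genes, whereas DAXX and ATRX are mostly known as constitutively expressed.

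The unit throughout is RPM, that is reads scaled to a common library size, counted on 1 amplicon per gene by a targeted method, Ion AmpliSeq. Amplicons amplify unequally, so levels are compared between libraries and never between genes. Libraries held between 10017130 and 10707777 reads, so that 1 read stood for 0.0934 to 0.0998 RPM. In the RNA of a whole culture, a few cells with a high level and many with a slight rise cannot be told apart. PVRL4 itself lay between 7.86 and 11.6 RPM in the control libraries, between 4.36 and 5.99 with siRNA 1 and between 2.58 and 3.39 with siRNA 2; by limma its adjusted p against control was 0.0601 (0.0132 with the replicate number as a block) and 0.00224, respectively. All 7 genes of an SKBR3 identity list were above 3 reads in every library. The 10 leukocyte markers summed to between 0.095 and 1.55 RPM, and 4 of them were at 0 in all 9 libraries. The 7 stromal and endothelial markers summed to between 9.35 and 15.5 RPM, and 2 of them, CDH5 and COL1A1, were above 3 reads in every library.

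The genes lie on 6 chromosomes, of which chromosome 2 holds both speckled proteins. Positions are those of GENCODE on GRCh38. PML is at chr15:73994673-74047812 on the plus strand, TRIM22 at chr11:5689689-5737089 on the plus strand and IFI16 at chr1:158999968-159055155 on the plus strand. DAXX is at chr6:33318558-33323016 and ATRX at chrX:77504878-77786233, both on the minus strand. SP110 is at chr2:230167293-230225729 on the minus strand, and SP100 follows at chr2:230415942-230544090 on the plus strand. Between them lie SP140 at chr2:230203110-230313215, which overlaps SP110 on the opposite strand, and SP140L at chr2:230327184-230403732. TRIM22 lies within the annotated span of TRIM5 (chr11:5663557-5938619) on the opposite strand. How the counting treated strand and near-identical paralogs is not given in the sources used here, so the values of these overlapping genes carry that uncertainty.

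SP100 and SP110 lie near each other and both were high in the same libraries, so the start regions of the 2 genes are shown where they hold the same short sequence. Promoters from the RefSeq table (GRCh38.p14) were matched for 3 of the 7 genes, SP100, SP110 and IFI16, with 2 annotated starts each. The capitals mark AAGTGAAA or its reverse complement, a sequence chosen after these windows had been read. Each stretch has 30 bases, is written 5′ to 3′ on the strand of its gene and overlaps an annotated exon. They are at chr2:230225715-230225744 (minus strand, also overlapping an exon of SP140), chr2:230220017-230220046 (minus strand) and chr2:230416126-230416155 (plus strand).
SP110, first start: gaggaaaagaaAAGTGAAAttgcctaacta
SP110, second start: actccgaaaacTTTCACTTttcttttctcg
SP100: aggttaaatacTTTCACTTctcttttcccc
The match lay 97 and 51 bases before the annotated starts of SP110 and 64 bases before that of SP100. Within the 250 bases before the annotated start and on both strands, AAGTGAAA was found in 3 of the 6 windows of the 3 genes and in 1.37% of all 35116 windows. The shorter AANNGAAA, which every AAGTGAAA also matches, was found in 5 of 6 windows and in 20.3% of all. Of 17 windows of an interferon reference list, 3 held AAGTGAAA and 16 held AANNGAAA. The core of the interferon-stimulated response element, which is GAAA, any 2 bases and GAAA again, was in none of the 6 windows and in 3.02% of all, and 11 of the 17 reference windows held it. The gamma-activated site TTCNNNGAA was in 1 of the 6 windows, at SP110, in 5 of the 17 reference windows and in 6.57% of all. A match describes these letters only, and a missing match says nothing of a factor outside this window.

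The siRNA 1 libraries are described first. The genes were chosen with the values of this comparison in view, so these values are a description and carry no test. TRIM22, PML and SP100 were higher in all 3 siRNA 1 libraries than in any control library, and so were SP110 and IFI16, from a few reads or none. DAXX overlapped its control level, and ATRX was at 85.0% of its control mean. Within the group, replicate 1 had the highest level of PML, SP100, TRIM22 and IFI16, and replicate 2 the lowest level of all 5.

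PML, the scaffold of the body, was the one of the 5 with a clear level in control cells. It measured 2.39, 3.70 and 2.96 RPM in control replicates 1 to 3, and 33.7, 8.04 and 13.4 RPM with siRNA 1. The groups did not overlap, and the siRNA 1 libraries stood 11.2-fold, 2.67-fold and 4.46-fold above the control mean of 3.01 ± 0.656 RPM (SD, n = 3). The fitted log2 change was 2.06 (SE 0.35) on the log2(RPM + 1) scale, which understates changes of genes with low values.

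SP100, which joins the bodies through SUMO and was first known as an autoantigen, had almost no reads in control cells. Its levels were 0.286, 0.189 and 0.197 RPM in control libraries, or 7 reads in all. With siRNA 1 they were 11.5, 1.26 and 5.14 RPM, or 187 reads. All 3 siRNA 1 libraries were above all 3 controls, and the ratio of the read rates was 26.5 with a 95% interval from 12.6 to 66.9. Such intervals, here and below, cover counting error only and not the spread between libraries. The fitted log2 change was 2.19 (SE 0.43).

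SP110, a relative of SP100 with the same chromatin-binding SAND domain, also had few reads in control cells. A single read was found in each control library (0.095, 0.095 and 0.099 RPM), against 2.99, 0.290 and 3.36 RPM with siRNA 1. That is 3 reads against 70, a ratio of 23.2 with an interval from 7.61 to 115. It was the only one of the 5 with its highest value in replicate 3, and the 3 reads of replicate 2 are at the detection floor of 3 reads. Its mean over the 9 libraries was 0.771 RPM, under the minimum of 1 RPM, and no model was fitted to it.

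IFI16 encodes a DNA sensor of the PYHIN family that acts mostly in the nucleus. It had 0 reads in all 3 control libraries and 3.96, 0.290 and 0.747 RPM with siRNA 1, 52 reads in all. Against the floor of 3 reads per library, the siRNA 1 group was at least 5.77-fold higher. Replicate 1 gave most of these reads and replicate 2 was at the floor. With a mean of 0.566 RPM, IFI16 was also left out of the fit.

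TRIM22, an E3 ubiquitin ligase with antiviral activity, had the largest fitted change of the 5 tested genes. It measured 0, 0.379 and 0.197 RPM in control libraries and 60.9, 5.91 and 23.5 RPM with siRNA 1. These are 6 reads against 943, and the ratio of the read rates was 156 (95% interval 71.5 to 426). The lowest siRNA 1 library stood far above the highest control, and the fitted log2 change was 4.21 (SE 0.53).

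DAXX and ATRX, the pair that loads histone H3.3, had ample reads and did not share this pattern. DAXX, the histone chaperone, measured 98.8, 98.0 and 116 RPM in control libraries and 108, 107 and 111 RPM with siRNA 1. The groups overlapped, and the log2 change of 0.06 had a 95% interval from -0.17 to 0.29. ATRX, the chromatin remodeller of the pair, measured 32.1, 31.5 and 31.9 RPM in control libraries and 27.2, 26.6 and 27.4 RPM with siRNA 1. The siRNA 1 libraries were all lower than the controls, with a log2 change of -0.23 (interval -0.48 to 0.02).

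**Figure D1:**
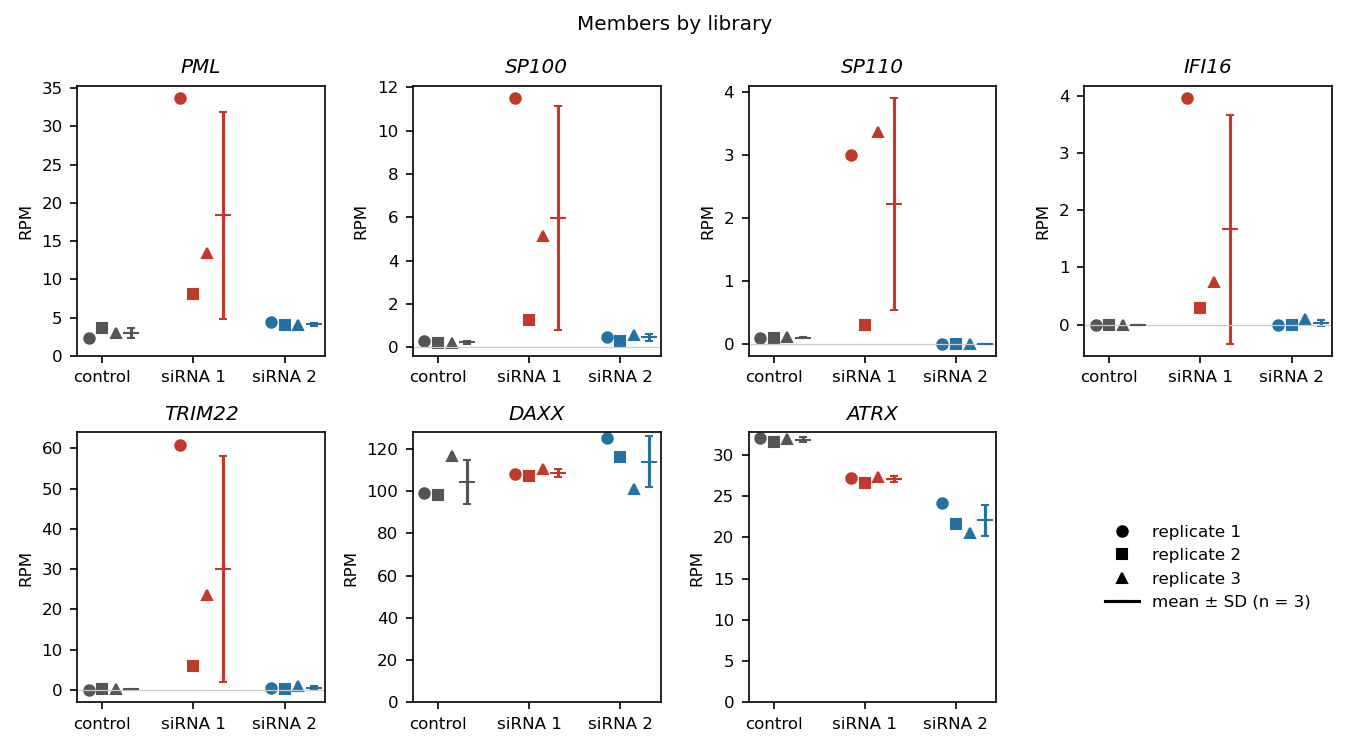
Level of each gene in RPM (vertical axis, its own scale in each panel) in the control, siRNA 1 and siRNA 2 libraries; symbols give the replicate number and the bar beside each group the mean ± SD of 3 libraries. PML, SP100, SP110, IFI16 and TRIM22 are above control in all 3 siRNA 1 libraries, with replicate 2 the lowest, while DAXX overlaps in all groups and ATRX steps down from control through siRNA 1 to siRNA 2.

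Over all 11158 genes tested with limma, 0.851% passed an adjusted p of 0.05 in siRNA 1 against control, 0.636% as higher and 0.215% as lower. Of the 7, 5 were tested, and PML, SP100 and TRIM22 passed as higher; since the genes were chosen on this contrast, nothing is read from that share. SP100 and TRIM22 reached the minimum of 1 RPM only through the siRNA 1 libraries. The call of TRIM22 held in each of 23 alternative fits. PML lost its call without control replicate 1, at a log2 change of 1.94. SP100 lost it without any one of control replicates 1, 2 and 3 (2.22, 2.17 and 2.17) and without siRNA 1 replicate 1 (1.61) or 3 (2.12), though it stayed higher in each. Leaving out siRNA 1 replicate 1, which had the highest levels, gave log2 changes of 1.52 for PML and 3.46 for TRIM22. Groups that did not overlap were found for 6.4% of the tested genes as higher and 5.59% as lower.

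With siRNA 2, whose libraries had the lowest PVRL4, none of the 5 tested genes passed the threshold in limma without the replicate block. With the block ATRX passed it, in a fit that called 380 of the 11158 genes. Without the block, the background for this comparison was 0.681% of 11158 genes, 0.0358% as higher and 0.645% as lower. It uses the same 3 control libraries as the siRNA 1 comparison, and the genes were chosen with earlier results of these data known. At an unadjusted p under 0.05 limma without the block had 1 of the 5, ATRX, against 1051 of all 11158 tested genes. Without the block edgeR called 0, and DESeq2 called 1, also ATRX.

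PML measured 4.39, 4.07 and 4.01 RPM with siRNA 2, just above the highest control library at 3.70 RPM. The groups did not overlap, which held for 4.99% of tested genes in this direction. The log2 change was 0.37, with a 95% interval from -0.37 to 1.12 and an adjusted p of 0.824 by limma with Benjamini-Hochberg adjustment. The lower bound of the interval includes no change, and the upper bound is below the 2.06 fitted with siRNA 1.

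SP100 measured 0.499, 0.291 and 0.572 RPM with siRNA 2, or 14 reads against 7 in control. The ratio of read rates was 2.02, with a counting interval from 0.764 to 5.92. All 3 siRNA 2 libraries were above the highest control library at 0.286 RPM, though the nearest had 3 reads, as that control had. In limma its log2 change was 0.24 (interval -0.68 to 1.17, adjusted p 0.928). TRIM22 measured 0.499, 0.388 and 0.954 RPM, or 19 reads against 6, a ratio of 3.20 with a counting interval from 1.23 to 9.80. Here too the siRNA 2 libraries were all above the highest control library, at 0.379 RPM, with the nearest at the same 4 reads. Its log2 change was 0.43 (interval -0.70 to 1.57, limma adjusted p 0.878). SP110 had 0 reads in all 3 siRNA 2 libraries and IFI16 a single read, in replicate 3; a count of 0 allows up to 3 reads in a library, or 0.280 to 0.299 RPM across the 9. Apart from PML, the genes that were high with siRNA 1 were thus at a few reads or none with siRNA 2.

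DAXX with siRNA 2 measured 125, 116 and 101 RPM and overlapped control (log2 change 0.12, interval -0.11 to 0.36, limma adjusted p 0.808). ATRX measured 24.2, 21.6 and 20.5 RPM with siRNA 2, a mean of 22.1 ± 1.87 against 31.9 ± 0.270 in control (SD, n = 3). All 3 libraries were lower than every control library, at 69.4% of the control mean, and groups apart in this direction were found for 8.95% of tested genes. Its log2 change was -0.51 (SE 0.12, interval -0.76 to -0.26), with a limma adjusted p of 0.0733. With the replicate number as a block, limma gave an adjusted p of 0.0119. By edgeR the adjusted p was 0.0773 (0.0137 with the block), and by DESeq2 0.0215. Over the 23 alternatives the adjusted p ran from 0.0119 to 0.237 and the log2 change from -0.57 to -0.45, negative in all. The SKBR3 identity list was also lower in these libraries: it summed to between 10793 and 11564 RPM with siRNA 2, against 12969 to 13553 RPM in control. Of its 7 genes limma called 0 and had 4 at an unadjusted p under 0.05, against 1051 of all 11158 tested genes. With the replicate block, which called 380 genes in all, KRT8 was called lower (log2 change -0.38, adjusted p 0.0155, against 0.25 without it). The part of this difference in the level of ATRX was not tested. ATRX passed the threshold in 3 of the 23 alternatives, the 2 with the block and DESeq2, and not in the limma fit without it.

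**Figure D2:**
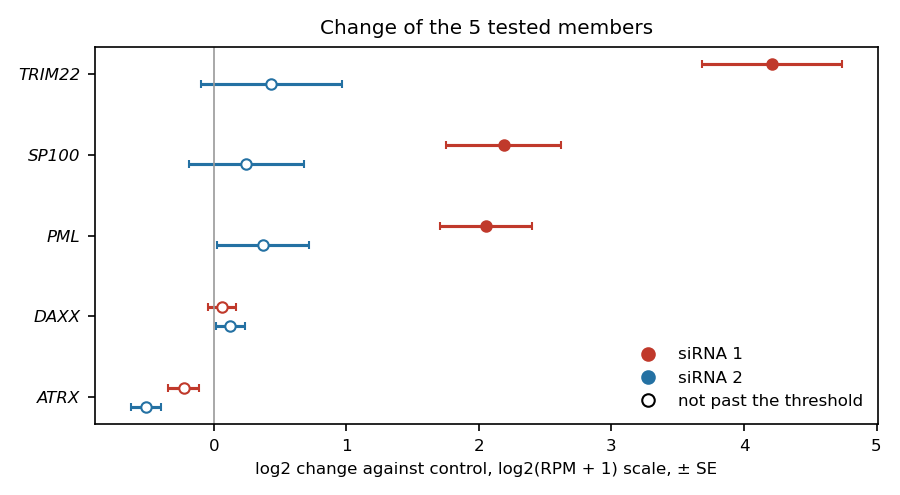
Fitted log2 change against control (horizontal axis, log2(RPM + 1) scale) with its standard error for the 5 tested genes, siRNA 1 in red and siRNA 2 in blue; filled points passed the adjusted threshold over all genes. With siRNA 1, TRIM22 is at 4.21, SP100 at 2.19 and PML at 2.06, while DAXX and ATRX lie near 0; no siRNA 2 point is filled, and ATRX is the lowest at -0.51.

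Set against each other, the 2 PVRL4 siRNAs differed in the genes that were high with siRNA 1. The log2 difference of siRNA 2 from siRNA 1 was -3.78 for TRIM22, -1.94 for SP100 and -1.68 for PML, and the groups did not overlap for any of the 3. These 3 of 5 tested genes were called lower, against a background of 2.46% of tested genes lower, 0.592% higher and 3.05% in either direction. Groups did not overlap for 12.6% of tested genes as lower and 7.04% as higher. The siRNA 1 libraries on which the genes were chosen enter this comparison, so it is a description too. ATRX was -0.28 lower with siRNA 2 (interval -0.53 to -0.04) and was not called, and DAXX differed by 0.06 (interval -0.17 to 0.29).

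The relatives beside these genes on the chromosome showed which members of each family moved in the same libraries. SP140L, the speckled protein gene next to SP100, measured 4.49, 3.60 and 3.65 RPM in control libraries. With siRNA 1 it measured 29.3, 6.003 and 12.6 RPM, and with siRNA 2 3.49, 4.75 and 3.91 RPM. Its siRNA 1 libraries were all above control, and the log2 change of 1.54 (SE 0.37) had an adjusted p of 0.0802 by limma, 0.00959 with the replicate block, 0.0387 by edgeR and 9.75e-05 by DESeq2. SP140, a leukocyte-restricted relative that overlaps SP110, had 0 reads in all 9 libraries.

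At the TRIM22 locus, TRIM5, a restriction factor of retroviral capsids, measured 1.24, 1.14 and 1.68 RPM in control libraries and 16.0, 3.10 and 7.28 RPM with siRNA 1. It rose by a log2 change of 1.83 (SE 0.39, limma adjusted p 0.0436). TRIM34, the next relative, measured 6.59, 7.48 and 5.91 RPM in control libraries and 24.3, 9.39 and 13.2 RPM with siRNA 1. Its log2 change of 1.02 was not called by limma (adjusted p 0.0954) and was called with the replicate block (0.0165). TRIM6, the farthest of the 3, measured 2.20, 3.03 and 2.66 RPM in control libraries and 4.83, 2.32 and 2.62 RPM with siRNA 1, and the groups overlapped. The 3 PYHIN relatives beside IFI16, namely MNDA, PYHIN1 and AIM2, had 0 reads in every library, so IFI16 was the detected gene of that cluster.

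**Figure D3:**
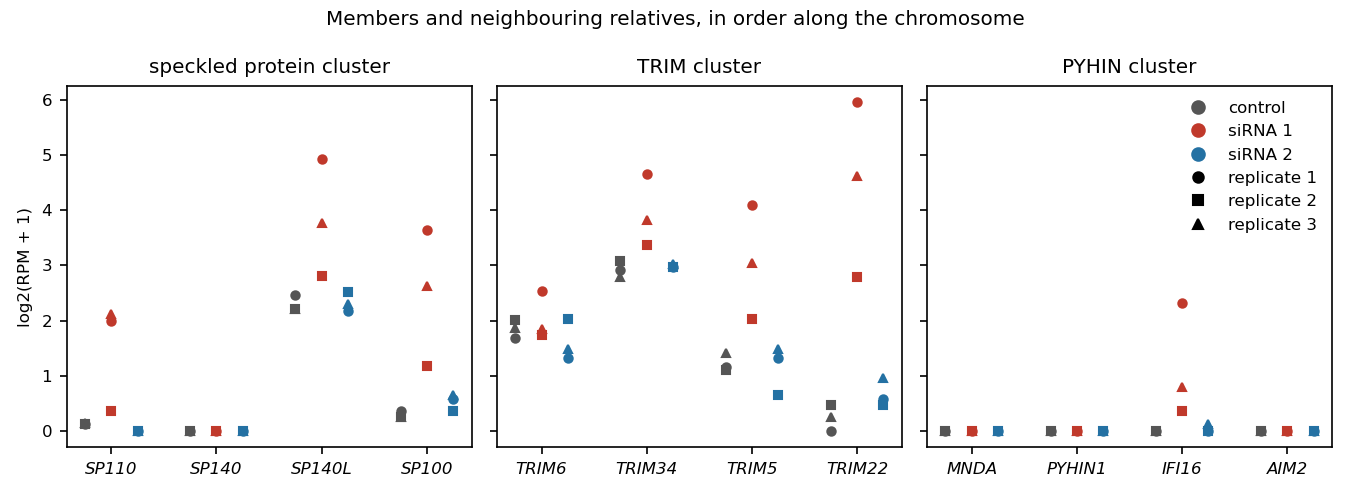
log2(RPM + 1) of each library (vertical axis) for the genes of 3 clusters in their order along the chromosome, colours for the groups and symbols for the replicates. In the siRNA 1 libraries SP110, SP140L, SP100, TRIM34, TRIM5, TRIM22 and IFI16 lie above all controls, whereas SP140, MNDA, PYHIN1 and AIM2 are at 0 in all 9 libraries and TRIM6 overlaps.

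Beyond the 7 genes, the genes of a list of PML body components moved in both directions with siRNA 1. Of 17 tested genes of this list, 0 were called by limma in siRNA 1 against control. At an unadjusted p under 0.05 there were 3, against 674 of all 11158 tested genes. The median log2 change of the list was -0.07 against 0.01 over all tested genes. HIPK1, BLM, TOPBP1, USP7, SMC5 and SMC6 were lower in all 3 siRNA 1 libraries than in every control library. MORC3 and SP140L were higher in all 3. Groups apart in this way were found for 5.59% of tested genes as lower and 6.4% as higher. NBN, a DNA break sensor seen at the bodies, measured 526 ± 79.3 RPM in control and 632 ± 172 with siRNA 1 (SD, n = 3; log2 change 0.24). SP140L, described above, was the 1 gene of the list called with the replicate block, by edgeR and by DESeq2. No alternative fit of this contrast called more than 219 genes in all.

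The SUMO machinery, which assembles the bodies, also had few calls with siRNA 1. Of 18 tested genes 0 were called by limma, with a median of -0.03. At an unadjusted p under 0.05 there were 2, against 674 of all 11158 tested genes. The list summed to 1858, 1805 and 1773 RPM in control libraries and to 1688, 1681 and 1684 RPM with siRNA 1. These sums did not overlap, but genes with the most RPM weigh most in them. SUMO3 went from a mean of 197 to 144 RPM, while the median log2 change of the list was -0.03. With siRNA 2 the list summed to 1793, 1819 and 1920 RPM. The modifier SUMO2 measured 421 ± 9.84 RPM in control libraries against 394 ± 31.5 RPM with siRNA 1. The corresponding levels of SAE1, a subunit of the SUMO-activating enzyme, were 217 ± 18.7 and 213 ± 9.38 RPM. With the replicate block 2 genes were called lower, SUMO3 (log2 change -0.44, adjusted p 0.00748) and the SUMO protease SENP5 (-0.50, adjusted p 0.00686). DESeq2 called both (0.00335 and 0.0345) and edgeR without the block called 0. Each alternative fit of this contrast called at most 219 genes in all. SENP5 was also lower with siRNA 2 (-0.51), at an adjusted p of 0.181 by limma and 0.00541 with the block. For siRNA 2 the fit with the block called 380 of all 11158 tested genes. SUMO3 and SENP5, and CBX5 below, are named after their values were seen.

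Genes of H3.3 deposition and heterochromatin, the partners of DAXX and ATRX, gave 0 calls among 22 tested by limma (edgeR 0) and a median of -0.05. At an unadjusted p under 0.05 limma had 2 of them, against 674 of all 11158 tested genes. H3F3A, a gene for histone H3.3, measured 667 ± 12.5 RPM in control and 695 ± 20.5 with siRNA 1. The heterochromatin protein CBX3 measured 739 ± 40.7 and 675 ± 49.0 RPM. CBX5, another heterochromatin protein, was called lower with the replicate block (log2 change -0.54, adjusted p 0.0219, against 0.268 by limma without it). Again at most 219 genes in all were called by any alternative fit of this contrast. Between the siRNAs, limma called genes of these 3 lists: CBX3 (log2 difference of siRNA 2 from siRNA 1 0.38, adjusted p 0.0459), CBX5 (0.70, 0.0330) and SUMO3 (0.42, 0.0366) were higher with siRNA 2 and SP140L was lower (-1.50, 0.0393). With the replicate block, which called 1041 of all 11158 tested genes between the siRNAs, NBN was called lower as well (-0.39, adjusted p 0.0182). These 4 calls were lost with single libraries left out: the PML component count became 0 without any one library other than siRNA 1 replicate 2, and the SUMO count without control replicate 2, any siRNA 1 library, or siRNA 2 replicate 1 or 2. The H3.3 count of 2 became 1 without control replicate 1 or 3 or siRNA 2 replicate 2, and 0 without any other. Against control with siRNA 2, 0 genes of these 3 lists were called by limma. With the block 1 was, SENP5, where that fit called 380 of all 11158 tested genes. At an unadjusted p under 0.05 limma had 1, 2 and 2 genes of the 3 lists, against 1051 of all 11158.

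Some genes of 2 lists of antiviral factors rose with siRNA 1, while most tested genes of both lists were not called. Of 20 tested TRIM genes 6 were called higher and 0 lower, where 0.636% of all tested genes were higher; the median was 0.15. TRIM21, a cytosolic antibody receptor, rose from 3.75 ± 1.32 to 31.0 ± 22.9 RPM (log2 change 2.54, limma adjusted p 0.00273). TRIM38, a regulator of innate signalling, rose from 9.26 ± 1.19 to 27.7 ± 15.03 RPM (1.37, adjusted p 0.0248), and TRIM56 from 15.7 ± 2.92 to 35.4 ± 15.2 RPM (1.06, adjusted p 0.0465). TRIM28, a corepressor in heterochromatin, measured 419 ± 32.8 and 346 ± 46.9 RPM and was not called, nor was TRIM44 at 74.7 ± 14.6 and 75.3 ± 14.5 RPM. The count of 6 was 1 without control replicate 1 or 3, 2 without control replicate 2, 2 without siRNA 1 replicate 1 and 1 without siRNA 1 replicate 3; it was 7 without siRNA 1 replicate 2 and 4 without any one siRNA 2 library.

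Of 7 tested genes for DNA sensing, 1 was called, SAMHD1, a dNTP hydrolase that limits viral DNA synthesis. It measured 6.11, 7.77 and 8.38 RPM in control libraries and 88.4, 15.9 and 36.0 RPM with siRNA 1 (log2 change 2.19, SE 0.40, limma adjusted p 0.0151). The call was lost without any one of the 3 control libraries and without siRNA 1 replicate 3. TBK1, the kinase downstream of cytosolic DNA sensors, measured 116 ± 11.4 and 131 ± 19.3 RPM, and its substrate IRF3 78.4 ± 2.73 and 81.6 ± 4.09 RPM; neither was called. With siRNA 2, 0 genes of the TRIM and 0 of the DNA sensing list were called by limma. At an unadjusted p under 0.05 there was 1 of each, against 1051 of all 11158 tested genes.

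**Figure D4:**
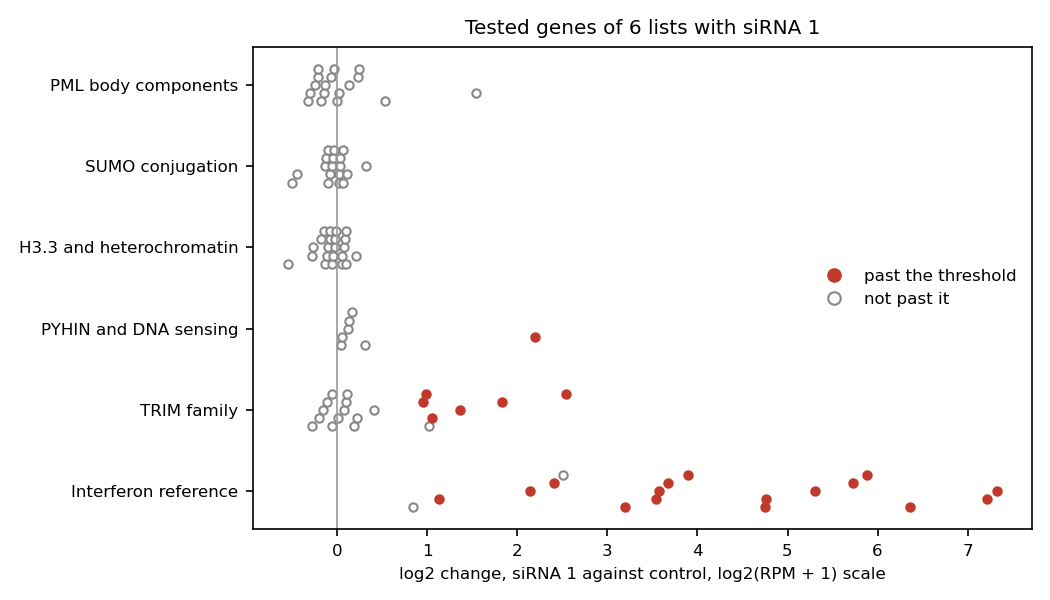
log2 change of siRNA 1 against control (horizontal axis, log2(RPM + 1) scale) for every tested gene of 6 lists, one point per gene, spread vertically for legibility; filled points passed the adjusted threshold. PML body components, SUMO conjugation and H3.3 genes have medians of -0.07, -0.03 and -0.05 with no filled point, while 6 of 20 TRIM genes and 16 of 18 interferon reference genes are filled.

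An interferon reference list of 18 genes was used to place the 5 genes among the other changes of the same libraries. With siRNA 1, 16 of its 18 genes were called higher by limma, where 0.636% of all tested genes were higher. The median log2 change of the list was 3.78. The list was chosen with earlier results of these data known, so this count is a description. IFIT2, IFIT3, OAS2 and IFI27 reached the minimum of 1 RPM only through the siRNA 1 libraries. IFIT1 (7.32), MX1 (7.21), OAS2 (6.36) and ISG15 (5.89), all antiviral effectors, had the largest log2 changes of the list on the log2(RPM + 1) scale, and USP18 (0.84) and IFIT3 (2.51) were not called; IFIT3 was called with the replicate block (adjusted p 0.00556, against 0.0552 by limma without it). The summed level of the list was 247, 273 and 252 RPM in control libraries, 7072, 1107 and 3219 RPM in siRNA 1 replicates 1 to 3, and 262, 272 and 349 RPM with siRNA 2. PML, SP100, TRIM22 and IFI16 followed this order within the siRNA 1 group, replicate 1 over 3 over 2, and SP110 did not. Whether the interferon genes have a part in the levels of the 7 genes was not tested. In the siRNA 2 group replicate 3 had the highest sum, and also the highest TRIM22 (0.954 RPM) and SP100 (0.572 RPM), but its PML was the lowest of that group. With siRNA 2, 0 of the 18 genes were called by limma and 0 had an unadjusted p under 0.05. The median log2 change of the list with siRNA 2 was 0.41, against -0.02 over all tested genes. IFIT1, IFIT5, MX1 and OAS1 were higher in all 3 siRNA 2 libraries than in every control library, and STAT2 was lower. The lowest of these libraries for IFIT1 had 3 reads. Groups apart in this way were found for 4.99% of tested genes as higher and 8.95% as lower.

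**Figure D5:**
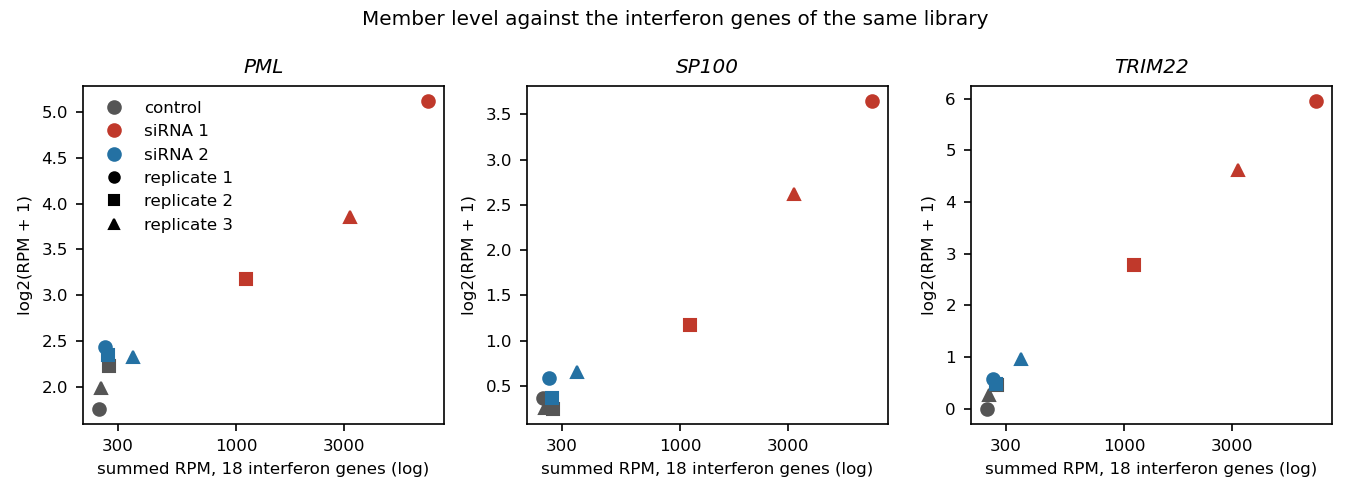
log2(RPM + 1) of PML, SP100 and TRIM22 (vertical axes) against the summed RPM of 18 interferon genes in the same library (horizontal axis, log scale), colours for groups and symbols for replicates. The 3 siRNA 1 libraries, at 1107, 3219 and 7072 summed RPM, are ordered alike for all 3 genes, and the control and siRNA 2 libraries cluster between 247 and 349.

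Across the 9 libraries, the genes most like each of the 5 tested genes were sought among 7931 genes whose mean reached 10 RPM; the correlations are on log2(RPM + 1), describe points that share the 3 groups, and carry no test. For PML they were IFIH1 (Pearson r 0.994), TRIM21 (0.986) and TRIM38 (0.984). For SP100 they included EIF2AK2 (0.991) and APOL6 (0.986), and for TRIM22 they were IFI44 (0.996), DDX58 (0.993) and IFI6 (0.993). IFI44 had 0 reads in all control libraries, 5.81 to 66.5 RPM with siRNA 1 and at most 0.572 RPM with siRNA 2. IFI44, APOL6, TRIM21 and TRIM38 reached the minimum of 10 RPM only through the siRNA 1 libraries. Their likeness is therefore partly built in by that minimum.

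Among themselves PML, SP100 and TRIM22 had r of 0.977 to 0.983, with IFI16 0.917 to 0.952 and with SP110 0.892 to 0.950. DAXX and ATRX followed neither these genes (r between -0.07 and 0.08 with PML, SP100 and TRIM22) nor each other (-0.28). For DAXX the most similar genes were PPIA (0.944), BTF3 (0.919) and NEIL3 (0.876). PPIA, a proline isomerase, ranged from 4279 to 5810 RPM within the control libraries alone. For ATRX they were APOO (0.956), TXNDC5 (0.943) and LSM14B (0.938), which like ATRX were lowest with siRNA 2. APOO, a protein of the mitochondrial inner membrane, lay between 24.0 and 25.3 RPM in the control libraries, between 21.6 and 23.6 under siRNA 1 and between 16.4 and 18.6 under siRNA 2.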

How the data were processed

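Total RNA of SKBR3 cells was made into 9 Ion AmpliSeq libraries, 100 ng each, per the labels' protocols. The deposited table gives RPM for 20812 genes, computed by the authors; the submitters' processing notes name hg19, and the aligner and counter are not given in the sources used here. All values were whole reads within 0.1 read, which returned the read counts. Groups and replicate numbers came from the sample titles. The 11158 genes whose mean across libraries reached 1 RPM were tested two-sided with limma 3.58.1 (R 4.3.3) on log2(RPM + 1), with a trended prior, all 3 groups in the fit and Benjamini-Hochberg adjustment over all of them at 0.05. The fit was tested on simulated data. Alternatives were other pseudocounts, filters and scalings, a replicate block, the 6 libraries compared, no trend, edgeR 4.0.16 and DESeq2 1.42.0 on the recovered reads, and leaving out each library. Same-numbered libraries deviated together (r from 0.252 to 0.417 in 9 pairs, against -0.340 to -0.0275 in 18 others), so the numbers were taken to pair the samples. Deviations from a group mean cancel within the group, so the negative values follow in part from the positive ones and are no separate evidence. The fit reported as limma leaves this pairing out, and only the fits with the replicate block use it. Read-rate ratios carry exact 95% intervals. The genes and lists were chosen with earlier results of these data known. Named were the 7 genes and PVRL4, for each tested one its 3 most correlated genes, up to 4 called and 2 uncalled genes per list, and listed neighbours. Genes named by this rule that are withheld are not reported here.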

Additional observations from a re-analysis of the deposited data

How the results depend on the processing

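Of the 7 genes, 3 were called in siRNA 1 against control. The count was 1 with no filter and 1 with no trend in the prior variance, and 5 by edgeR with no filter, an alternative chosen after seeing the data that adds SP110 and IFI16; leaving out 1 library at a time gave 1 to 3, with 1 without control replicate 1. For siRNA 2 against control the count of 0 became 1 (ATRX, lower) with the replicate block, by edgeR with the replicate block and by DESeq2, and leaving out 1 library gave 0 each time. For siRNA 2 against siRNA 1 the count of 3 was 1 with no filter, 1 with no trend and 5 by edgeR with no filter, and 1 to 3 with 1 library left out, with 1 without siRNA 2 replicate 2 or 3. The replicate block changed no other call of the 7 genes. One direction reversed: DAXX in siRNA 2 against siRNA 1 was -0.0062 without siRNA 2 replicate 1, against 0.06, and at most 0.15 with another library left out. Over the alternatives for siRNA 1, the log2 change ran from 1.40 to 2.59 for PML, 0.96 to 4.71 for SP100 and 2.40 to 7.29 for TRIM22; SP100 also lost its call with a pseudocount of 5 and with only the 6 libraries compared. Over all genes, the calls ran from 46 to 219 (206 with the block, 95 as reported) for siRNA 1, 17 to 380 (380 with the block, 76 as reported) for siRNA 2, and 155 to 1041 (1041 with the block, 340 as reported) between the siRNAs. Depth limits SP100, SP110, IFI16 and TRIM22, which had 0 to 4 reads in each control library. The cause of these shifts was not tested.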
